A study of Mus musculus with 59 samples.

Results

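The genes described here encode proteins of the large mitochondrial ribosomal subunit and carry an Mrpl symbol with a number, and Mrpl40 is among them. They were taken by symbol alone (Mrpl followed by digits only), with no use of their levels, and are 49 of the 57180 rows of the count table. The study sequenced poly(A) RNA of cortex and hippocampus of male mice, and its title asks about genetic interactions between mitochondrial genes of a microdeletion locus. The groups are Mrpl40 +/+,Slc25a1 +/+ (wild type, 9 cortex and 8 hippocampus libraries), Mrpl40 +/+,Slc25a1 -/+ (Slc25a1 -/+, 7 and 7), Mrpl40 -/+,Slc25a1 +/+ (Mrpl40 -/+, 7 and 7) and Mrpl40 -/+,Slc25a1 -/+ (double -/+, 7 and 7). The 59 libraries came from 30 mice, of which 29 gave both tissues. The labels name no age and no kind of mutation for either allele.

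Mitochondria keep their own ribosome, which translates the few messenger RNAs of mitochondrial DNA into subunits of the respiratory chain. Its proteins are all encoded in the nucleus, made in the cytosol and imported, and the large subunit holds the site where peptide bonds form. Part of its proteins have bacterial homologues, others are found only in mitochondria, and several of these rebuild the central protuberance, the knob where the large subunit meets the small one. Mrpl40 is a protein of that knob, and Slc25a1 is the citrate carrier of the inner mitochondrial membrane.

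All 49 genes passed the filter on low counts in both tissues, with raw counts between 159 and 2240 per library from totals of 21443017 to 32120906 counts. The tissue labels matched their markers: 7 of 8 genes typical of cortex were lower in hippocampus and 7 of 8 typical of hippocampus were higher. The genotype labels did not all match the counts. The count of Slc25a1 fell into a low level (10.8 to 13.1 CPM, counts scaled to a common library total) and a high level (21 to 27.3 CPM), and 6 mice lay on the level opposite to their label in both tissues: 2 labelled wild type, 2 labelled Slc25a1 -/+ and 2 labelled double -/+. Libraries are therefore named by label, and the results were also computed without these mice. Hippocampus Mrpl40 -/+ library 5 stood apart in choroid plexus markers and hippocampus Slc25a1 -/+ library 3 in cerebellar markers, and the hippocampus results were also computed without this pair.

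Mrpl40 itself did not tell the labelled genotypes apart. In cortex it measured 16 to 20.7 CPM in wild type (median 17.1), 14.3 to 19.3 in Slc25a1 -/+ (median 17.8), 15.4 to 19.3 in Mrpl40 -/+ (median 17.5) and 15.2 to 19.6 in double -/+ (median 17.6). In hippocampus it measured 13.4 to 17.2 CPM in wild type (median 15.9), 14.3 to 16.1 in Slc25a1 -/+ (median 15.1), 14 to 17.1 in Mrpl40 -/+ (median 15.4) and 14.4 to 17.2 in double -/+ (median 16.2). The ranges of all 4 genotypes overlapped in each tissue, and the means lay within the spread between mice: 17.9 ± 1.56 CPM (SD, n = 9) against 17.4 ± 1.58 (n = 7) for wild type and Mrpl40 -/+ in cortex, and 15.6 ± 1.16 (n = 8) against 15.7 ± 1.10 (n = 7) in hippocampus.

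The fitted log2 difference of Mrpl40 between Mrpl40 -/+ and wild type was -0.043 ± 0.061 (SE) in cortex (95% interval -0.17 to 0.081, edgeR adjusted p 0.915). In hippocampus it was -0.00044 ± 0.054 (-0.11 to 0.11, adjusted p 0.999), a value whose sign turned under 6 alternatives. The intervals run from a fall of the count by 11.1% to a rise of 5.78% in cortex, and from a fall by 7.34% to a rise of 7.92% in hippocampus. With all libraries labelled Mrpl40 -/+ (single and double) set against the rest, the difference was -0.024 in cortex (interval -0.11 to 0.067, adjusted p 0.872) and 0.029 in hippocampus (-0.05 to 0.11, adjusted p 0.772). A loss of counts as deep as the gap between the levels of Slc25a1 lies outside these intervals. The rows count whole genes, and the labels do not say which bases the allele changes, so the level of Mrpl40 does not check its genotype label. The plot of Mrpl40 by group shows each library.

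**Figure D1:**
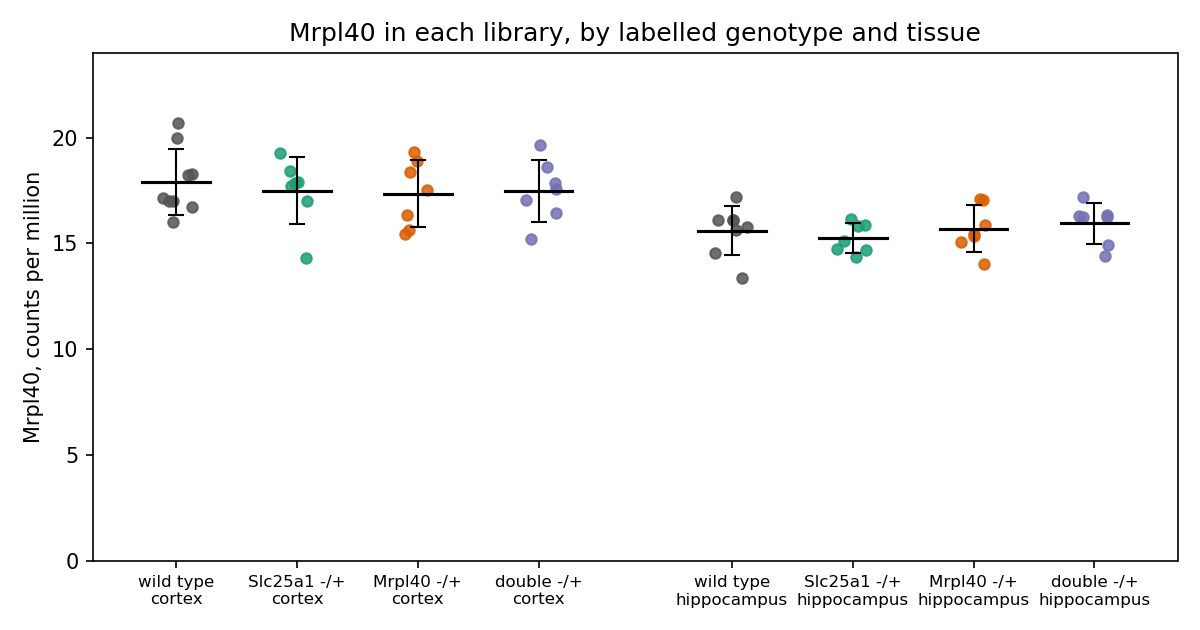
Mrpl40 in each library in CPM (vertical axis, starting at 0), by labelled genotype and tissue. Each point is a library, bars are the mean and whiskers the SD. The 4 genotypes overlap within each tissue, and the hippocampus means (15.2 to 15.9) lie below the cortex means (17.4 to 17.9).

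Compared per length, the members covered a wide range of levels in wild-type cortex. In CPM per kilobase of exon the median member was at 10.9 (range 1.54 to 37.4), against a median of 3.47 over all 19845 genes tested in cortex that had an annotated length. The 4 highest were Mrpl41 at 37.4 ± 2.65 (SD, n = 9), Mrpl12, a protein of the factor-binding stalk, at 25.4 ± 1.36, Mrpl53 at 24.0 ± 1.55 and Mrpl27, homologous to a bacterial protein near the peptidyl transferase centre, at 21.9 ± 0.818. The 4 lowest were Mrpl33 at 1.54 ± 0.0919, Mrpl23, at the exit tunnel, at 2.36 ± 0.114, Mrpl15 at 2.73 ± 0.147 and Mrpl13 at 2.75 ± 0.188. Mrpl40 stood at 10.2 ± 0.885, rank 29 of 49, and at rank 31 in wild-type hippocampus (8.86 ± 0.661). Mrpl53, Mrpl27 and Mrpl2 overlapped in range with their neighbours in this order, whereas Mrpl41 and Mrpl33 overlapped with no other member, as the plot of levels per length shows.

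**Figure D2:**
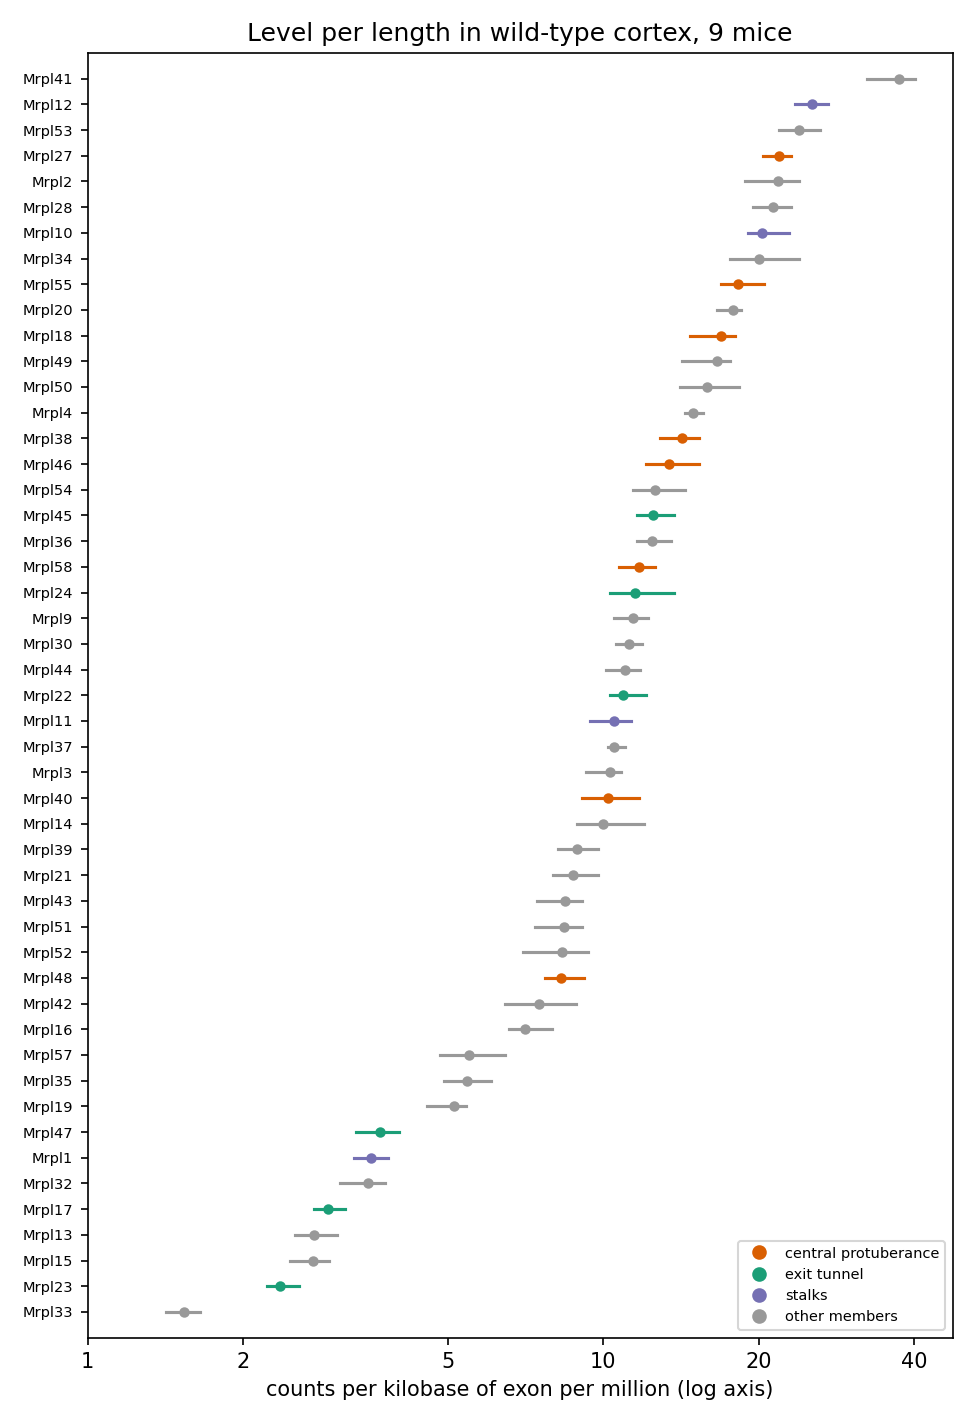
Level of the 49 genes in wild-type cortex, as CPM per kilobase of exon on a log axis. Points are means over 9 mice and lines run from the lowest to the highest mouse, coloured by place in the subunit. Mrpl41 (37.4) and Mrpl33 (1.54) mark the ends, and Mrpl40 (10.2) lies near the middle.

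These levels divide by the length of all annotated exons of a gene, so a gene with a long, little used exon reads low. Mrpl13, Mrpl15 and Mrpl33 have 7936, 8487 and 7326 bases of annotated exon, against a median of 2533 bases over the members and 3596 over the genes tested. A pseudogene of Mrpl23, Mrpl23-ps1, was counted at 6.18 ± 0.555 CPM in wild-type cortex (SD, n = 9) and one of Mrpl48, Mrpl48-ps, at 8.98 ± 0.671, so the values of Mrpl23 and Mrpl48 are uncertain by the reads that such copies can take. The value of Mrpl53 is uncertain too, as 695 of its 790 exon bases overlap Gm42688 on the same strand. The members varied little between mice of a group: the median coefficient of variation over the 49 genes ran from 5.16% to 6.53% over the 8 groups, against 6.34% to 8.03% for genes whose level fell in the members' range.

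The largest differences of these genes in the study lay between tissues. In the fit with the mouse as a block, 41 of the 49 members passed between hippocampus and cortex (edgeR, adjusted p under 0.05), 18 higher and 23 lower in hippocampus. That is 83.7%, where 77.5% of the 21354 genes tested were called (39.8% higher, 37.7% lower), so the share is close to the background and is not a result about these genes. At an unadjusted p under 0.05 there were 41 members, and 78.6% of all genes. Their median log2 difference was -0.022, against 0.012 over all genes. The differences were small, from -0.39 to 0.31 in log2: 3 members, Mrpl1, Mrpl34 and Mrpl58, passed a test for a change of at least 1.2-fold. Here and below, no share of all genes stands beside this test, so its counts only describe the size of the differences. In wild-type mice alone 27 of 49 passed (55.1%, where 60.6% of all genes did), 12 higher and 15 lower, where 30.4% and 30.1% of all genes were. At an unadjusted p under 0.05 there were 31 members (63.3%, and 63.9% of all genes). In bulk tissue, fewer cells of a type and less RNA per cell cannot be told apart.

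The 2 stalks, the arms that handle transfer RNA leaving the ribosome and the translation factors that bind it, moved in both directions. Mrpl1, of the stalk by the tRNA exit, rose most of all members, from 13.2 to 17.3 CPM in cortex (median 15.5) to 17.9 to 21.2 CPM in hippocampus (median 19.2). The ranges of the 2 tissues did not overlap, it was higher in 29 of 29 mice, and its log2 difference was 0.31 ± 0.024 (SE, adjusted p 6.04e-14). Mrpl10, the anchor of the factor-binding stalk, rose by 0.23 ± 0.018 (adjusted p 6.23e-14, 29 of 29 mice). Mrpl12, which is held by Mrpl10, fell by 0.20 ± 0.020 (adjusted p 6.00e-11), and Mrpl11, at the base of the same stalk, rose by 0.06 ± 0.020 (adjusted p 0.00618).

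Of the 8 genes of the central protuberance 6 fell in hippocampus and 0 rose, with a median log2 difference of -0.13. That is 75% called, where 77.5% of all genes were called in either direction and 37.7% lower, and 1 passed for a change of at least 1.2-fold. Mrpl58, a peptidyl-tRNA hydrolase that became part of the subunit, fell most of all members, from 35.3 to 42.5 CPM in cortex (median 39.5) to 24 to 35.5 in hippocampus (median 29.7). It was lower in 29 of 29 mice although the ranges of the tissues touched, with a log2 difference of -0.39 ± 0.022 (adjusted p 8.98e-18). Mrpl48 (-0.26 ± 0.019) and Mrpl46 (-0.25 ± 0.025) were likewise lower in all 29 mice. Mrpl40 fell by 0.16 ± 0.027 (adjusted p 2.24e-06), from a mean of 17.5 CPM to 15.6 CPM, and was lower in 25 of 29 mice. Mrpl18, a homologue of a bacterial protein of the knob, was at -0.089 ± 0.018, and Mrpl38 at -0.077 ± 0.022, with a sign that turned when trends over gene length and GC content were taken out (0.037, adjusted p 0.124). Mrpl27 (-0.00065, adjusted p 0.982) and Mrpl55 (0.018, adjusted p 0.555) did not pass. In wild-type mice alone 5 of the 8 fell (62.5%, median -0.14), where 60.6% of all genes were called and 30.1% lower.

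At the exit tunnel, where the new peptide leaves, 4 of 6 genes rose and 0 fell, with a median of 0.096. That is 66.7% called, where 77.5% of all genes were called and 39.8% higher. In wild-type mice alone 2 of the 6 rose (33.3%, median 0.059), where 60.6% of all genes were called and 30.4% higher. Without the 6 mice whose Slc25a1 level went against the label 3 rose, with no share of all genes beside that count. In the fit over all 29 mice 0 passed for a change of at least 1.2-fold. Mrpl17 rose by 0.20 ± 0.024 and was higher in 29 of 29 mice, and Mrpl24 rose by 0.12 ± 0.021, Mrpl47 by 0.12 ± 0.027 and Mrpl23 by 0.076 ± 0.028. Mrpl22 (-0.017) and Mrpl45 (-0.022), the latter an anchor to the inner membrane, did not pass. The places in the subunit were listed with earlier results of these data known, and no test compared them with each other.

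Among the remaining members the largest rises were those of Mrpl57 (0.26 ± 0.024), Mrpl9 (0.24 ± 0.020) and Mrpl52 (0.20 ± 0.034), and the largest falls those of Mrpl34 (-0.36 ± 0.030), Mrpl14 (-0.29 ± 0.036) and Mrpl16 (-0.28 ± 0.025). Mrpl34, a very small protein of bacterial ancestry, measured 9.82 to 14.6 CPM in cortex (median 11.6) and 7.79 to 11.5 in hippocampus (median 9.11), and was lower in all 29 mice. Mrpl57 and Mrpl9 were higher in all 29 mice, and in all 5 members rose in every mouse and 4 fell in every mouse. The counts per mouse and the overlap of ranges were taken for the members only. No share of all genes stands beside them, so they are not a result about these genes. By ancestry, 12 of the 30 members with bacterial homologues were called higher and 13 lower, and of the 19 found in mitochondria only 6 were called higher and 10 lower, where 39.8% and 37.7% of all genes were. The difference between both kinds was not tested.

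**Figure D3:**
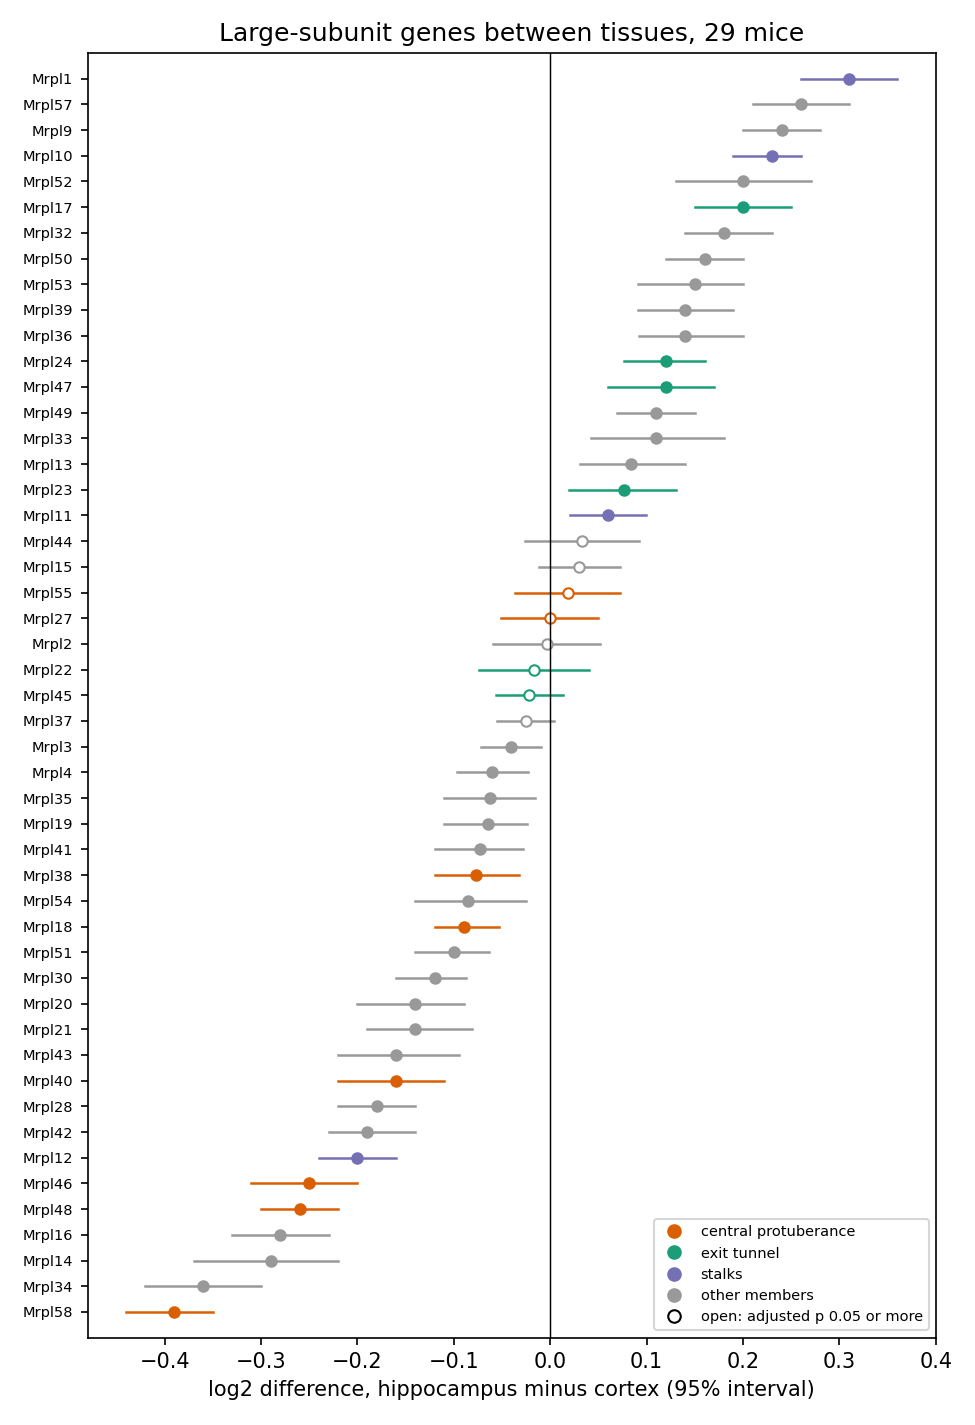
Log2 difference of the 49 genes, hippocampus minus cortex, in the fit over 29 mice with the mouse as a block. Points are estimates, lines are 95% intervals, colours give the place in the subunit, and open points did not pass. Mrpl1 (0.31) and Mrpl58 (-0.39) are at the ends, and 7 of the 8 genes of the central protuberance lie below 0, of which 6 passed.

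GC content, taken over the longest transcript of a gene, overlapped between the directions. The 18 members called higher had a median GC content of 47.8% (41.3% to 54%) and 2830 bases of exon, the 23 called lower 51.4% (43.2% to 60.4%) and 2011 bases, and the 8 not called 51.4% (40% to 57.5%) and 1407 bases. With sample-specific trends over length and GC content taken out, 38 of the 41 calls were kept, 41 members were called (20 higher, 21 lower), and the median turned from -0.022 to 0.024, beside 0.028 over all genes. The share of all genes called in that fit is not given here, so these counts are not a result about these genes. The tissues also differed in cell markers, with 40% to 90% of each list below called, beside 77.5% of all genes (39.8% higher, 37.7% lower). Of 10 neuron markers 8 were called lower in hippocampus and 1 higher (summed level 10400 to 14900 CPM, against 13000 to 14500 in cortex). Of 10 oligodendrocyte markers 6 were called higher (2050 to 4860 CPM, against 1690 to 4250), and 0 in wild-type mice alone. Of 10 astrocyte markers 6 were called higher and 1 lower (4750 to 7090 CPM, against 4430 to 5460), and of 10 microglia markers 7 higher (347 to 511 CPM, against 323 to 439), 0 of the latter in wild type alone. Of 10 endothelial markers 3 were called higher and 1 lower (200 to 289 CPM, against 200 to 288). Of 7 choroid plexus markers tested 6 were called higher (24 to 101 CPM over the 10 listed, against 4.02 to 15.5), and of 9 cerebellar markers 7 (31.6 to 668 CPM, against 24.7 to 49.5). The 101 CPM belongs to hippocampus double -/+, whose libraries all stayed in the fits without the pair that stood apart. Hippocampus Mrpl40 -/+ reached 87.4 CPM of choroid plexus markers. The 668 CPM belongs to hippocampus Slc25a1 -/+, whose library 3 stood apart, and the other hippocampus groups reached at most 110 CPM of cerebellar markers. Up to 2 choroid plexus and 2 cerebellar markers were at 0 in a library, and 0 of the other lists. The part of the cell markers in the members' differences was not tested.

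The partners of the large subunit also held genes called in either direction, with 53.3% to 94.1% of each list called beside 77.5% of all genes (39.8% higher, 37.7% lower). Of 31 proteins of the small subunit 10 rose and 11 fell (median 0.02), with Mrps12 at -0.32 ± 0.027, Mrps22 at 0.25 ± 0.023 and Mrps35 at -0.20 ± 0.024. Of 3 large-subunit proteins with other names, 2 fell, Gadd45gip1 (-0.15 ± 0.038) and Mrps18a (-0.14 ± 0.022). Of 20 genes for assembly of the large subunit 10 rose and 6 fell, with wider changes: Rpusd3, a pseudouridine synthase, was at 1.15 ± 0.059, Rpusd4, of the same family, at 0.67 ± 0.039 and Mrm1, a methyltransferase of the large ribosomal RNA, at -0.99 ± 0.035. Of 15 mitochondrial translation factors tested 6 rose and 2 fell, with Taco1 at 0.25 ± 0.036 and Lrpprc, which binds mitochondrial messenger RNA, at 0.19 ± 0.022. Of 17 mitochondrial tRNA synthetases 11 rose and 5 fell, with Lars2 at 0.41 ± 0.081 and Aars2 at -0.39 ± 0.021. Of 15 regulators of mitochondrial gene expression 8 rose and 6 fell, with Gabpb2, a subunit of an ETS-family factor, at 0.86 ± 0.034 and Ppargc1a, a coactivator of mitochondrial genes, at -0.60 ± 0.042.

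The members lie on 17 chromosomes, and part of them share a start region with another gene. For 13 of the 49 (26.5%) a protein-coding gene on the other strand starts at most 1000 bases upstream, or overlaps the start by a short stretch. The share was 7.21% of 22015 protein-coding genes in the annotation (GENCODE vM21, GRCm38). Genes that overlap the start further were left out of both shares. Mrpl40 (chromosome 16, 18872018 to 18876862, minus strand) faces Hira, a histone chaperone gene, whose start is 175 bases away. Hira also fell between the tissues (-0.26 ± 0.022, adjusted p 2.19e-13) and was at 0.019 ± 0.041 in cortex labelled Mrpl40 -/+ (adjusted p 0.953). Exons of 20 members overlap exons on the opposite strand and those of 4 overlap exons on the same strand. Among the former are Mrpl43, whose partner is Twnk, and Mrpl44, whose partner is Wdfy1. Among the latter is Mrpl53, which shares 695 of its 790 exon bases with Gm42688. No source used here gives the strand setting of the counting, and the values of members with opposite-strand overlaps are therefore uncertain by the reads of the partner. Those with same-strand overlaps are uncertain under any strand setting.

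Start regions were available for 43 of the 49 genes from RefSeq (GRCm38.p6, 250 bases before to 50 after the start). Mrpl4, Mrpl13, Mrpl15, Mrpl19, Mrpl38 and Mrpl54 are the others. The start regions were searched on both strands for 6 motifs, whose matches may overlap. The motif CCGGAAG of ETS factors stood in 34.9% of the members and in 12.9% of 17492 protein-coding genes. The palindrome of NRF1, GCGCA followed directly by TGCGC, stood in 6.98% against 1.47%, TGCGCA, a shorter NRF1 motif that can overlap it, in 27.9% against 11%, and AAGATGGC of YY1 in 14% against 3.57%. GGGCGG of SP1 stood in 39.5% against 49.2%, and CCAAT in 34.9% against 42.3%. The window of Mrpl40 lies mostly inside the longer GENCODE model of the gene: 25 of its bases before the start are outside it, with 0 matches of ETS, the NRF1 palindrome, YY1 or SP1. The 3 stretches below are examples from the members with the largest falls, Mrpl58 and Mrpl34, and from a member that rose, Mrpl52, each being the 250 bases before the start on the plus strand, with ETS matches in capitals (CTTCCGG is the motif on the other strand). They are at chr11:115403502-115403751, chr8:71464676-71464925 and chr14:54426659-54426908. Each of the 3 holds 1 match, as do other members such as Mrpl17 and Mrpl22, and they were picked once values were known. The stretches before the start of Mrpl57, Mrpl9 and Mrpl10, which rose more than Mrpl52, hold 0 ETS matches. Over the members with a window, ETS letters stood in 5 of the 17 called higher in hippocampus, in 8 of the 19 called lower and in 2 of the 7 not called. The letters TGCGCA stood in 8, 1 and 3 of them. These counts were made after the values were seen, and the difference was not tested. A match is a description of letters, not of binding.
Mrpl58: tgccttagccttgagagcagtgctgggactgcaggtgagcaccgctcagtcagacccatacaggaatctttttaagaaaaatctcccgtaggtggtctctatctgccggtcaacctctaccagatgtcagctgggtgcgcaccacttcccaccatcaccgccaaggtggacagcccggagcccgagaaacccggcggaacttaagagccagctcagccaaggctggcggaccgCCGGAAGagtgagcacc
Mrpl34: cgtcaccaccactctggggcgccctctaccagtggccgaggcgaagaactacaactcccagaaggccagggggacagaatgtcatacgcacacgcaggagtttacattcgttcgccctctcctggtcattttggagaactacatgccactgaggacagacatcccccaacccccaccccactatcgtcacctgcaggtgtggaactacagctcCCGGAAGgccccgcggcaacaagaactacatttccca
Mrpl52: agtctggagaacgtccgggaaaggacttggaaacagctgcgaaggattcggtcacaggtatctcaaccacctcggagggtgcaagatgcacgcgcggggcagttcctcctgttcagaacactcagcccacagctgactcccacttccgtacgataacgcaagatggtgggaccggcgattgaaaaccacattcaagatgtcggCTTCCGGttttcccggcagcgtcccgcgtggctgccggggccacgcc

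The genotype comparisons set the libraries labelled Slc25a1 -/+, Mrpl40 -/+ and double -/+ against wild type gene by gene, with no test of the large subunit as a whole. They share the wild-type libraries of a tissue. By edgeR 0 of the 49 members passed in any of them, and 0 by DESeq2. The background was as thin: 0% of 20394 genes were called in cortex Slc25a1 -/+, 0.0294% in Mrpl40 -/+ and 0.0686% in double -/+, and in hippocampus 0%, 0.00496% and 0.00992% of 20162, so that 0 members called is not a result about these genes. Of all genes, 0.0049% were called lower in cortex Mrpl40 -/+. At an unadjusted p under 0.05 there were 3, 2 and 3 members in cortex (6.12%, 4.08% and 6.12%, against 3.17%, 6.94% and 10.9% of all genes) and 6, 0 and 2 in hippocampus (12.2%, 0% and 4.08%, against 7.77%, 8.19% and 5.28%).

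In cortex labelled Mrpl40 -/+, 36 of 49 members lay below wild type, with a median log2 difference of -0.024 against -0.002 over all genes. The smallest p belonged to Mrpl57, at 13.8 to 15.4 CPM (median 14.6) in Mrpl40 -/+ and 14.3 to 19.1 CPM (median 16.1) in wild type. The ranges overlapped, and the log2 difference of -0.15 ± 0.053 had an adjusted p of 0.576. Next were Mrpl53 (-0.099 ± 0.045, adjusted p 0.688) and Mrpl51 (-0.092 ± 0.048, adjusted p 0.731). All 10 oligodendrocyte markers lay above wild type there (median 0.30, 0 called), with summed levels of 1690 to 4010 CPM against 1830 to 2950. All 10 microglia (median -0.10) and all 10 endothelial markers (-0.12) lay below, as did 9 of 10 astrocyte markers (-0.074), with 0 called. Of 10 neuron markers 8 lay above (0.045, 0 called). Of 5 choroid plexus markers tested 3 lay below (-0.021), and of 8 cerebellar markers 6 (-0.19), with 0 called. The part of the markers in the members' values was not tested.

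In cortex labelled Slc25a1 -/+, 41 of 49 members lay below wild type (median -0.03, all genes -0.00043), among them all 8 genes of the central protuberance and all 6 of the exit tunnel. All 10 oligodendrocyte markers lay above wild type there (median 0.17, 0 called, summed level 2020 to 4250 CPM against 1830 to 2950). All 10 endothelial markers lay below (median -0.065, 0 called, 216 to 268 CPM against 225 to 288). Of 10 neuron markers 7 lay above, and 6 of 10 astrocyte and 8 of 10 microglia markers lay below, with 0 called. Of 5 choroid plexus markers tested 4 lay above (median 0.18), and of 8 cerebellar markers 5 (0.097), with 0 called. The part of the markers in the members' values was not tested. Mrpl43, a protein found in mitochondria only, went the other way. It measured 12.3 to 16.9 CPM (median 14.6) against 11.3 to 13.8 (median 12.9) in wild type, a log2 difference of 0.20 ± 0.061 with an unadjusted p of 0.00213 and an adjusted p of 1. In cortex labelled double -/+ it measured 13.4 to 16.7 CPM (median 13.9), a difference of 0.16 ± 0.061 (adjusted p 0.314), and in hippocampus it lay below wild type in both, at -0.11 ± 0.052 and -0.10 ± 0.052. The difference between the tissues of its Slc25a1 -/+ effect was -0.28 ± 0.082 (unadjusted p 0.00151, adjusted p 0.816) and did not pass. Mrpl57 (-0.14 ± 0.053) and Mrpl53 (-0.10 ± 0.045) were the other members at an unadjusted p under 0.05, both with an adjusted p of 1.

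In cortex labelled double -/+, 27 members lay below wild type and 22 above (median -0.011, all genes -0.0034). Mrpl4 had the smallest p, at 34.8 to 38.1 CPM (median 37.1) against 37.8 to 40.9 (median 38.7), a difference of -0.095 ± 0.033 with an adjusted p of 0.27. Only the top of the one range met the bottom of the other. Mrpl51 was at -0.12 ± 0.049 (adjusted p 0.33). All 10 oligodendrocyte markers lay above wild type there (median 0.18, 0 called) and all 10 astrocyte markers below (-0.092, 0 called). Of 10 microglia markers 9 lay below and 1 was called lower (10%, where 0.049% of all genes were). Of 10 endothelial markers 9 lay below and of 10 neuron markers 6 above, with 0 called. Of 5 choroid plexus markers tested 3 lay above (median 0.61), and of 8 cerebellar markers 6 (0.13), with 0 called. The part of the markers in the members' values was not tested. Taken as double -/+ minus both single effects, the interaction lay above 0 for 36 of 49 members (median 0.038, all genes 0.0014), and 0 passed by edgeR and by DESeq2, with 4 at an unadjusted p under 0.05 (8.16%, against 5.35% of all genes); 0% of all genes passed. Mrpl57 had the smallest p: its level in double -/+ was 15.1 to 18.0 CPM (median 15.4), between both single genotypes and wild type in mean (16.0, against 14.7, 14.6 and 16.3), and the interaction was 0.26 ± 0.078 (unadjusted p 0.00169, adjusted p 0.643). Mrpl35 (0.21 ± 0.071) and Mrpl27 (0.17 ± 0.066) followed, with adjusted p of 0.778 and 0.82.

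In hippocampus labelled Slc25a1 -/+, 42 of 49 members lay below wild type, with the lowest median of the 6 comparisons with wild type (-0.057, all genes 0.0045). Mrpl12 measured 30.4 to 34.6 CPM (median 30.8) against 32.2 to 37.1 (median 34.6), at -0.12 ± 0.041 (adjusted p 0.5). Mrpl3, which reaches toward the catalytic centre, measured 56.4 to 67.2 CPM (median 62.3) against 61.6 to 73.4 (median 68.6), at -0.11 ± 0.037 (adjusted p 0.525). Mrpl28 was at -0.12 ± 0.049 (adjusted p 0.599). All 3 overlapped with wild type in range. Of 10 neuron markers 8 lay below wild type there (median -0.16, 0 called), and 7 of 10 oligodendrocyte markers (-0.019, 0 called). Above it lay 9 of 10 astrocyte (0.091), 8 of 10 microglia (0.081) and 7 of 10 endothelial markers (0.03), with 0 called. Of 8 cerebellar markers tested 7 lay above (median 1.9), and of 7 choroid plexus markers 5 (0.17), with 0 called. Library 3 of this group is the one that stood apart in cerebellar markers. The part of the markers in the members' values was not tested. Without the 6 mice whose Slc25a1 level went against the label, 39 of 49 lay below (median -0.047), and without the pair of libraries that stood apart 41 did (median -0.064). The small subunit was similar in count, with 27 of 31 below wild type in hippocampus (median -0.072) and 25 of 31 in cortex (median -0.061), and 0 called in either.

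In hippocampus labelled Mrpl40 -/+, 23 members lay below and 26 above wild type (median 0.0053, all genes -0.007). The median turned to -0.0031 with 27 below without the pair of libraries that stood apart, and to -0.021 with 34 below with 2 surrogate variables. The smallest p belonged to Mrpl34 (-0.12 ± 0.069, adjusted p 0.646), Mrpl51 (-0.072 ± 0.042, adjusted p 0.648) and Mrpl48 (0.077 ± 0.046, adjusted p 0.653). Of 10 neuron markers 9 lay above wild type there (median 0.12, 0 called). All 10 astrocyte (-0.1) and all 10 oligodendrocyte markers (-0.06) lay below, as did 9 of 10 microglia and 9 of 10 endothelial markers, with 0 called. All 7 choroid plexus markers tested lay above (median 0.44), and 6 of 8 cerebellar markers below (-0.29), with 0 called. The part of the markers in the members' values was not tested. In hippocampus labelled double -/+, 36 members lay below (median -0.026, all genes -0.0029), and Mrpl30 (-0.093 ± 0.040, adjusted p 0.908), Mrpl41 (-0.096 ± 0.044, adjusted p 0.925) and Mrpl43 (-0.10 ± 0.052, adjusted p 0.964) had the smallest p. Of 10 neuron and of 10 oligodendrocyte markers 9 each lay above wild type there, and 7 of 10 astrocyte and 6 of 10 microglia markers below, with 0 called. Of 7 choroid plexus markers tested 6 lay above (median 0.3), and of 8 cerebellar markers 5 (0.16), with 0 called. The interaction in hippocampus lay above 0 for 32 of 49 (median 0.024), with 0 called by edgeR and DESeq2 (0% of all genes), and Mrpl3 alone was at an unadjusted p under 0.05 (0.14 ± 0.054, adjusted p 0.999), 2.04% of the members against 3.39% of all genes.

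**Figure D4:**
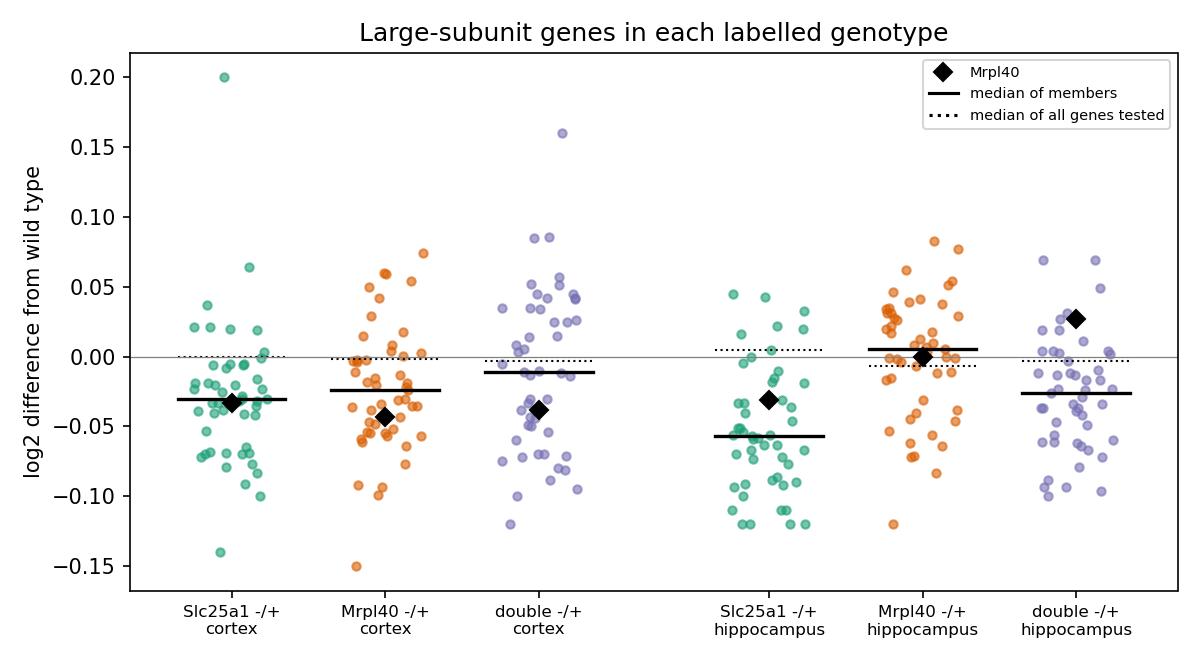
Log2 difference from wild type of the 49 genes in each labelled genotype and tissue, a point per gene. Diamonds are Mrpl40, solid lines the median of the members and dotted lines the median of all genes tested. No point passed the test, the members' medians run from -0.057 (hippocampus Slc25a1 -/+) to 0.0053 (hippocampus Mrpl40 -/+, a sign that turned in other fits), and Mrpl43 stands highest in cortex Slc25a1 -/+ (0.20).

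With all libraries labelled Mrpl40 -/+ set against the rest, 25 members lay below in cortex (median -0.0054, all genes -0.0037) and 17 in hippocampus (median 0.015, all genes -0.0098). By edgeR and by DESeq2 0 passed, where 0.0637% and 0.109% of all genes did by edgeR (0.0496% lower in hippocampus), and 3 and 2 members were at an unadjusted p under 0.05 (6.12% and 4.08%, against 11.6% and 14.3%). In hippocampus Mrpl35 had the smallest adjusted p (0.186): it measured 18.3 to 23.1 CPM in wild type (median 21.4), 19.0 to 22.6 in Slc25a1 -/+ (median 19.5), 21.0 to 24.6 in Mrpl40 -/+ (median 21.9) and 21.3 to 24.1 in double -/+ (median 22.5), a difference of 0.10 ± 0.034. The ranges overlapped. In cortex Mrpl51 had the smallest p (-0.087 ± 0.035, adjusted p 0.324), then Mrpl4 (-0.053 ± 0.024, adjusted p 0.391).

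The effects of the genotypes did not differ between tissues for any member by edgeR or DESeq2. For Slc25a1 -/+, Mrpl40 -/+ and double -/+ in turn, 0 of 49 passed, where 0%, 0% and 0.0234% of all genes did, and 5, 1 and 1 members were at an unadjusted p under 0.05 (10.2%, 2.04% and 2.04%, against 6%, 5.83% and 5.03%). Mrpl43 and Mrpl3 (-0.14 ± 0.042, adjusted p 0.816) had the smallest p for Slc25a1 -/+, and Mrpl57 for Mrpl40 -/+ (0.16 ± 0.066, adjusted p 0.829). The difference of Mrpl43 between tissues was -0.16 ± 0.029 over all mice and 0.0028 ± 0.056 in wild type (adjusted p 0.97).

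Within groups, the members rose and fell together only weakly from library to library. After the mean of each tissue and genotype was subtracted, pairs of members had a median Pearson's r of 0.18 over the 59 libraries (1176 pairs, -0.36 to 0.7), against 0 between a member and any other gene and 0.16 between a member and a small-subunit gene. Mrpl40 correlated above 0 with 44 of the other 48 members (median 0.18), most with Mrpl42 (r 0.53, Spearman's rho 0.59), Mrpl51 (0.53, rho 0.54), Mrpl10 (0.52, rho 0.43), Mrpl57 (0.49, rho 0.41) and Mrpl50 (0.48, rho 0.51). The median was 0.26 within cortex and 0.13 within hippocampus. None of these was among the genes most like Mrpl40. Of 19462 genes those were Snrpd1, a core protein of the splicing machinery (r 0.67, rho 0.66), Nudt3, a phosphate hydrolase (0.67, rho 0.66), Tspyl4 (0.66, rho 0.63), Atf4, a transcription factor of the stress response (0.65, rho 0.65), and Psmd14, a deubiquitinase of the proteasome (0.65, rho 0.58), while Mrpl42 ranked 109.

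**Figure D5:**
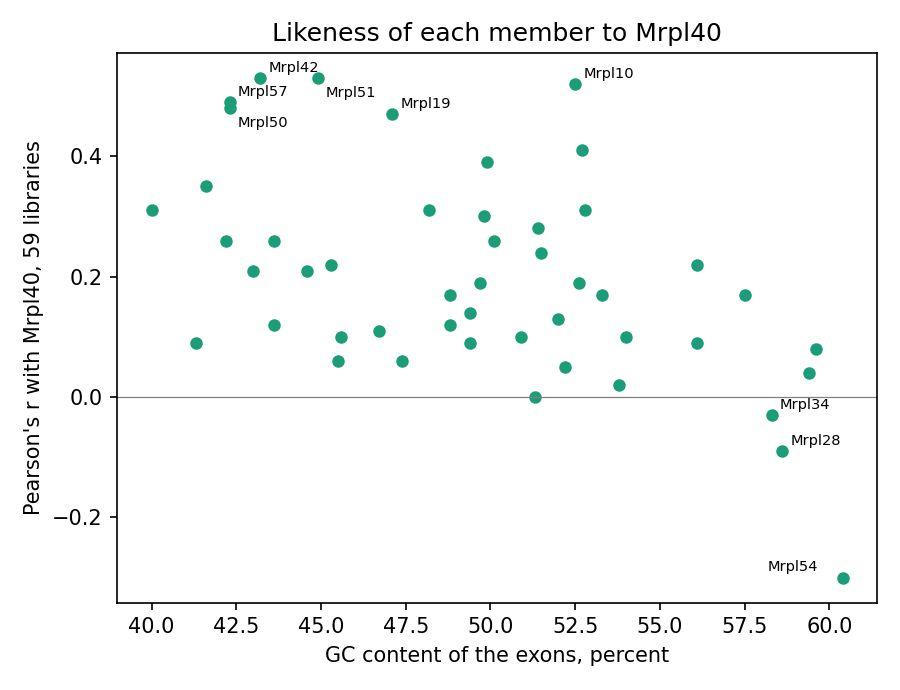
Pearson's r of each of the other 48 genes with Mrpl40 over 59 libraries, after subtracting group means (vertical axis). The horizontal axis is GC content in percent, taken over the longest transcript of each gene. Each point is a gene. Mrpl42 and Mrpl51 (0.53) are highest, and Mrpl54 (-0.30), Mrpl28 and Mrpl34, all at 58.3% GC or more, are lowest.

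These values are descriptions: the points share libraries, depth and RNA quality, and the members at both ends differed in base composition. The 3 members with the lowest r, Mrpl54 (-0.30), Mrpl28 (-0.09) and Mrpl34 (-0.03), had a GC content of 58.3% to 60.4%, and the 6 with the highest had 42.3% to 52.5%, as the plot of likeness shows. Mrpl40 itself had 54.4%. Some members of low GC content also had a low r, such as Mrpl13 (41.3%, r 0.09) and Mrpl48 (45.5%, r 0.06). The part of GC content in these correlations was not tested.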

How the data were processed

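The deposited table of raw counts has a row per gene and a column per library. A table the authors call normalized, deposited beside it, holds signal values: each equals the raw count over a factor of its library. The submitters' processing notes name FastQC, HISAT2, featureCounts, DESeq2 and the build GRCm39 (mm39), with no versions or settings. The kit marks strand per the labels' protocols, and no source used here gives the strand setting of the counting.

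Groups, tissues and mice came from the labels. The members and the gene lists were chosen with earlier results of these data known. Rows without a symbol (7074 of 57180) carry a gene identifier and stayed in the fits. The test was edgeR 4.0.16 in R 4.3.3 (quasi-likelihood, TMM, filterByExpr, robust), with all 4 genotypes of a tissue in 1 fit and Benjamini-Hochberg adjustment over all genes (20394 in cortex, 20162 in hippocampus). Comparisons between tissues were fitted over 29 mice with the mouse as a block (21354 genes). The labels give the mouse of each library, and over 5000 genes the deviations of a mouse's pair of libraries from their group means correlated with a median of 0.109 (-0.0294 to 0.414, 6 of 29 best with their own mouse), so the pairing rests on the labels. CPM values use TMM factors over all 59 libraries, log2 CPM a prior count of 2, and exon lengths and GC content come from GENCODE vM21 (GRCm38), where 97.3% of the genes tested in cortex were found. Exon length covers all annotated exons of a gene, and GC content its longest transcript.

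Genes were named by a rule. It took Mrpl40, the 4 highest and 4 lowest members per length, the 6 largest rises and falls between tissues, the central protuberance, the 3 smallest p in each genotype comparison, up to 3 called genes of each other list, and the 5 genes and 5 members most like Mrpl40. Other names were picked once values were known.

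The alternatives tried were DESeq2 size factors, no filter, the DESeq2 1.42.0 Wald test, length and GC trends as offsets, a fold of at least 1.2, fits without the 6 mice or the pair of libraries that stood apart (marker mean more than 1.5 log2 above the tissue's median), 2 surrogate variables (sva 3.50.0), the replicate number as a block, no mouse block, and only the genotypes compared. In simulated data the share of changed genes called at 1.2-fold, 1.5-fold and 2-fold was 46.3%, 85.1% and 98.5% for cortex Mrpl40 -/+ (20196 genes, 5 false calls), 50.7%, 82.1% and 97% for hippocampus (19991 genes, 3 false calls), and 86.6%, 98.5% and 100% between tissues (20988 genes, 7 false calls). It changed 66 or 67 genes per fold, drawn at random, with no shift shared by a mouse's libraries. In the data 77.5% of all genes were called between tissues, so these shares do not describe the members. Figures were drawn with Python 3.11.15 and matplotlib 3.10.9.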

Additional observations from a re-analysis of the deposited data

Results flagged for a closer look

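Named members were screened for a library far from the rest of its group (Dixon's ratio at the 95% level) in 248 sets of 1 gene and 1 group, and 14 (5.65%) were past the limit; chance flags about 1 in 20. In hippocampus Mrpl40 -/+, library 5, the one high in choroid plexus markers, was highest for Mrpl9 (40.2 CPM, next 36.2), Mrpl35 (24.6, next 22.4) and Mrpl12 (37.2, next 34.8), and library 6 was lowest for Mrpl46 (14.1, next 16.1). In hippocampus Slc25a1 -/+, library 3, the one high in cerebellar markers, was highest for Mrpl46 (17.9, next 15.9). In hippocampus wild type, library 6, from a mouse whose Slc25a1 level went against the label, was highest for Mrpl27 (26.5, next 22.3), library 3 was highest for Mrpl21 (18.4, next 16.7), and library 5 was lowest for Mrpl35 (18.3, next 20.9). In hippocampus double -/+, library 4 was highest for Mrpl55 (20.7, next 18.4). In cortex, the highest were wild-type library 9 for Mrpl10 (39.1, next 35.3), Slc25a1 -/+ library 1 for Mrpl35 (25, next 22.1), and double -/+ libraries 3 for Mrpl14 (11.8, next 9.58) and 4 for Mrpl43 (16.7, next 14.8), and double -/+ library 2 was lowest for Mrpl18 (20.7, next 22.9).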

How the results depend on the processing

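In the 10 genotype comparisons within a tissue and the 3 between tissues, 0 members passed under each alternative tried. Between tissues 38 to 41 members were called under the other alternatives, and a test for at least 1.2-fold left 3 (3 in wild type as well). With DESeq2 size factors 41 members were called, beside 16565 of all 21354 genes. Shares of all genes for the remaining alternatives are not given here, so these counts are not a result about these genes. The sign of Mrpl40 in hippocampus Mrpl40 -/+ turned with DESeq2 size factors (0.0057), no filter (0.0093), the DESeq2 test (0.0046), length and GC offsets (0.034), without the 6 mice (0.027) and with surrogate variables (9e-04), and for all Mrpl40 -/+ libraries of cortex with the offsets (0.0089) and without the 6 mice (0.00083). Between tissues Mrpl27 turned with no filter (0.0037), the offsets (0.019), without the 6 mice (0.0061) and with no mouse block (0.00011), and Mrpl38 with the offsets (0.037). With the offsets Mrpl4 (0.024) and Mrpl54 (0.029) lost their calls and turned as well. The cause was not tested. The median of the members in cortex double -/+ turned with the offsets (0.013) and without the 6 mice (0.0015), and in hippocampus Mrpl40 -/+ without the pair of libraries that stood apart (-0.0031) and with surrogate variables (-0.021). With the replicate number as a block 0 members were called in each genotype comparison; the labels do not say that a shared number marks anything, and same-numbered libraries correlated with a median of 0.126 in cortex (-0.411 to 0.537, 10 of 28 best with their own number) and 0.0432 in hippocampus (3 of 27), a hint from the data and not the design. For members with few counts (159 in the lowest library), counting error is part of the spread between mice.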
